A study of Homo sapiens with 18 samples.

Results

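SRSF2 overexpression was compared with an empty vector in MCF-10A, an immortalised human mammary epithelial line that does not form tumours. The cells stably carried a retroviral construct with the SRSF2 coding sequence (SRSF2-OE) or the empty plasmid PWZL (Control). Both groups were cultured in 3D in Matrigel, a basement membrane gel, for 8 days before RNA was taken for mRNA sequencing. The groups were chosen by their titles: 3 SRSF2-OE and 3 Control samples of the 18 in the series, described across all genes. Control samples 1 and 2 were lanes of a single library by their shared library ID and barcode, and were summed. That left 3 SRSF2-OE and 2 Control libraries of 14 in all, the other 9 carrying SRSF4, SRSF6, SRSF9 or TRA2B in the same way. Whether each line was a pool or a clone, and whether its replicates were grown apart, is not in the labels. The p-values therefore cover only library-to-library spread, which may be technical.

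SRSF2 (also called SC35) is an SR protein, a nuclear factor that binds exons through an RNA recognition motif and recruits the splicing machinery through its arginine- and serine-rich tail. It concentrates in nuclear speckles and also helps release paused RNA polymerase II through the 7SK complex. SR protein genes commonly limit their own output by including exons that send the transcript to nonsense-mediated decay. Splicing itself was not analysed here, because the deposited values are counts per gene.

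The libraries held 44064768 to 52846279 counts in SRSF2-OE, and 121601376 (summed lanes) and 49132413 in Control. Mitochondrially encoded genes took 16.4%, 8.31% and 11% of the counts of SRSF2-OE replicates 1, 2 and 3, and 11.96% and 7.64% of the Control libraries. The mammary basal epithelial markers, which include KRT5, KRT14 and TP63, were all tested (9 of 9), and their summed level was 26480 to 32530 CPM (counts scaled to a common, TMM-normalised library size) in SRSF2-OE and 20960 to 32250 CPM in Control. The summed level of 8 luminal markers was 61.0 to 89.7 CPM against 104 to 206 CPM, and PGR was at 0. For 10 fibroblast markers the sums were 300 to 444 CPM against 289 to 568 CPM, for 7 endothelial markers 8.56 to 12.8 CPM against 20.5 to 26.4 CPM, for 8 leukocyte markers 36.6 to 41.0 CPM against 38.2 to 44.1 CPM with CD3E at 0, and for 6 adipocyte markers 4.52 to 17.4 CPM against 4.10 to 5.48 CPM with ADIPOQ at 0. The basal markers of the labelled line were present in every library. Of the 48 markers, those tested were 9 basal, 4 luminal, 6 fibroblast, 3 endothelial, 4 leukocyte and 4 adipocyte genes. CD14 alone was called by DESeq2 (4.20, 4.78 and 3.19 CPM against 1.01 and 1.32 CPM, adjusted p = 0.0036), a call lost without either Control library. The log2 fold change of CD14 against the mean of the other 4 overexpression groups was -0.01.

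The introduced gene was examined first, in each library. SRSF2 stood at 214, 396 and 310 CPM in SRSF2-OE replicates 1, 2 and 3 and at 204 and 176 CPM in the summed and the third Control library. The library labelled SRSF2-OE replicate 1 lay inside the range of the 9 libraries carrying other factors (194 to 272 CPM), while replicates 2 and 3 lay above every other library. The group mean was 307 ± 91.2 CPM (SD, n = 3) against 190 ± 19.7 CPM (SD, n = 2), a log2 fold change of 0.80 ± 0.24 (edgeR estimate ± SE) that did not pass in edgeR (adjusted p = 0.233) or DESeq2 (adjusted p = 0.092). Without replicate 1 the log2 fold change was 1.01, with an adjusted p of 0.076 in edgeR and 6.1e-04 in DESeq2. Replicate 1 held the least SRSF2 of the 3 libraries, so leaving it out raises this estimate by selection. The p-values without it are therefore no evidence of a rise. An exact two-sided permutation test of log2 CPM between the 3 SRSF2-OE and the 11 other libraries gave a difference of 0.38 and p = 0.066. Against the 2 Control libraries alone the exact permutation p was 0.20, the smallest that 3 against 2 libraries can give. Reads of the introduced copy and of the cell's own SRSF2 fall into a single count, and the library labelled SRSF2-OE replicate 1 is therefore referred to by its label.

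**Figure D1:**
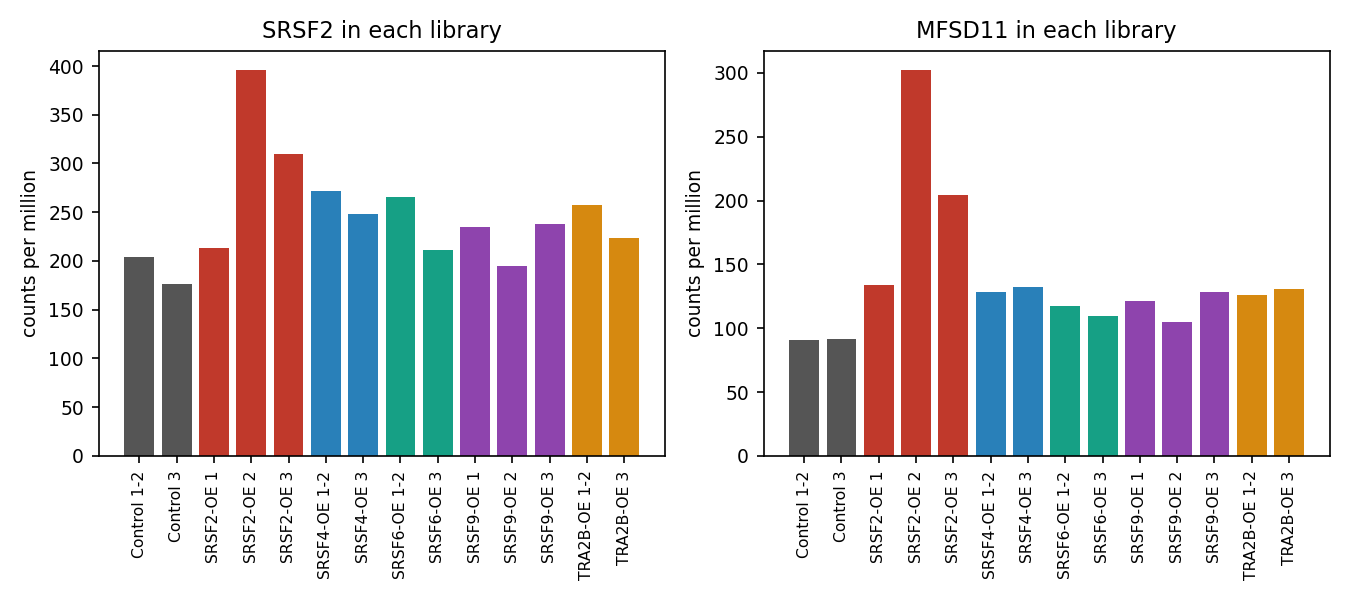
SRSF2 (left) and MFSD11 (right) in each of the 14 libraries, in CPM, 1 bar per library coloured by group. SRSF2-OE replicates 2 and 3 stand above all other libraries for both genes, and SRSF2-OE replicate 1 stands at 214 CPM of SRSF2, within the other libraries.

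MFSD11, which encodes a putative membrane transporter and starts beside SRSF2 on the opposite strand of chromosome 17, followed the same order. It stood at 134, 302 and 204 CPM in SRSF2-OE, at 90.5 and 91.7 CPM in Control and at 105 to 132 CPM in the 9 other libraries. All 3 SRSF2-OE libraries lay above both groups. Its log2 fold change against Control was 1.23 ± 0.30 (edgeR adjusted p = 0.180, DESeq2 adjusted p = 0.017), and 1.47 without SRSF2-OE replicate 1 (edgeR adjusted p = 0.032). Replicate 1 was the lowest of the 3 SRSF2-OE libraries for MFSD11 too, so the same limit of selection holds. The DESeq2 call was lost without either Control library (adjusted p = 0.178 and 0.215). In the GENCODE release 29 annotation, 1106 of the 3017 exon bases of SRSF2 also lie in exons of MFSD11, which hold 6587 bases. The strand setting of the counting is not stated in the labels or notes, so reads of the shared stretch cannot be told apart. How far such reads enter the MFSD11 values was not tested. The other neighbours did not follow: METTL23, a methyltransferase gene, JMJD6, a JmjC-domain oxygenase gene, and MXRA7 had log2 fold changes of -0.18, -0.03 and 0.08.

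Over all 21326 genes tested, edgeR's quasi-likelihood test with Benjamini-Hochberg adjustment called 0 genes between SRSF2-OE and Control (0% of genes), with 2849 genes (13.4%) at an unadjusted p under 0.05. DESeq2, run on the same libraries, called 451 of the 19624 genes to which it gave an adjusted p (2.30%), 236 higher (1.20%) and 215 lower (1.10%) in SRSF2-OE. limma-voom called 0, with 3219 genes at an unadjusted p under 0.05. All 3 SRSF2-OE libraries lay above both Control libraries in 3555 genes (16.7%) and below both in 3732 (17.5%), and the log2 fold change was above 0 in 53.0% of genes, with a median of 0.04. Calls below are DESeq2's unless edgeR is named, and each should be read against the 0 of edgeR. The DESeq2 count was 74 without the summed Control library, of which 59 were among the 451, and 287 without SRSF2-OE replicate 3, of which 224 were. It was 601 without SRSF2-OE replicate 1, with 312 shared. Of 55 named genes with a DESeq2 call, 15 kept it without each of the 5 libraries in turn: BIRC3, ERBB3, FASN, FDPS, G6PC3, GRAMD1C, MVD, MXRA8, NFIL3, NOP56, PGP, SCARB1, SH3BGRL3, TMOD2 and UBXN11. The other named calls were lost, or got no adjusted p, without at least 1 library, 31 of them without the summed Control library and 26 without Control replicate 3. The edgeR and DESeq2 fits held a term for the kind of sample label (a library ID or a number), and where the 2 Control libraries differ the fitted log2 fold change need not equal the ratio of the CPM means.

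Most genes of lipid synthesis lay above Control, a minority with a call. Of 25 genes listed for cholesterol synthesis and its control, 22 passed the filter on low counts and 21 had a positive log2 fold change. In 17, all 3 SRSF2-OE libraries lay above both Control libraries, where 16.7% of all genes did. DESeq2 called 5 of the 22 higher, where 1.20% of all genes were, and 0 lower. Their median log2 fold change was 0.90, against 0.04 over all genes, and DESeq2 called 2 of them without the summed Control library. The lists and this direction were known from earlier results of these data.

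MVD, which makes isopentenyl diphosphate, stood at 65.1, 78.9 and 74.0 CPM in SRSF2-OE and 15.5 and 27.9 CPM in Control (log2 fold change 1.69 ± 0.31, DESeq2 adjusted p = 5.3e-04). FDPS, the farnesyl diphosphate synthase, stood at 330, 284 and 310 CPM against 106 and 140 CPM (1.15 ± 0.20, DESeq2 adjusted p = 2.4e-04). The groups of both genes were well apart, and both calls held without each of the 5 libraries. MVK, the mevalonate kinase, stood at 57.3, 55.5 and 51.3 CPM against 20.2 and 32.2 CPM (0.87 ± 0.16, DESeq2 adjusted p = 0.0013). DHCR7, which catalyses the last step to cholesterol, stood at 140, 203 and 135 CPM against 17.4 and 63.8 CPM (1.78 ± 0.42, DESeq2 adjusted p = 0.0085). INSIG1, the sterol sensor that holds SREBP precursors back, stood at 41.2, 61.0 and 45.7 CPM against 12.7 and 17.5 CPM (1.58 ± 0.46, DESeq2 adjusted p = 0.041). The MVK and DHCR7 calls were lost without the summed Control library (DESeq2 adjusted p = 0.087 and 0.160). SQLE, the squalene epoxidase, had a log2 fold change of 0.79 ± 0.27 without a call, and PMVK lay below at -0.14 ± 0.16.

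The 150 bases before the annotated start of the first 4 of these genes are shown because CCAAT boxes, the sites of the factor NF-Y, are a known feature of sterol gene promoters. They are from RefSeq, build GRCh38.p14, written 5′ to 3′ on the gene's strand, with CCAAT or its reverse complement ATTGG in capitals.
FDPS, chr1:155308716-155308865, plus strand: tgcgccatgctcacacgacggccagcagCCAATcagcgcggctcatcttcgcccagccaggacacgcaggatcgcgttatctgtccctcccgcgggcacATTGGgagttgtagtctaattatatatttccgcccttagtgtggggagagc
MVD, chr16:88663092-88663241, minus strand: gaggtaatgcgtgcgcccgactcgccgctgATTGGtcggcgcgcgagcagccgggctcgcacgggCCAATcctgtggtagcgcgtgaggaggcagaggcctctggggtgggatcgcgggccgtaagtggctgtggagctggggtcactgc
MVK, chr12:109573644-109573793, plus strand: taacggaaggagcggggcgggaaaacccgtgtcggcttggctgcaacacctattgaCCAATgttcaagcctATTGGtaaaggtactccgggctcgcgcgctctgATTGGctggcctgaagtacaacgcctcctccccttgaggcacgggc
DHCR7, chr11:71448394-71448543, minus strand: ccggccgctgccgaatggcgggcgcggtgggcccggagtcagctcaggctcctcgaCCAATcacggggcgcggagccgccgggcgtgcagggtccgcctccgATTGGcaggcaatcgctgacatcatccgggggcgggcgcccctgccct
FDPS, MVD and DHCR7 each held 2 such matches and MVK held 3. Over the 250 bases before the start, CCAAT was found on either strand in 15 of the 18 cholesterol genes with an entry (83.3%) and in 33.0% of 27305 genes. The motif TCACNCCAC, a sterol regulatory element form, was found in 1 of the 18 (SREBF2) and in 0.88% of all genes. These are matches of letters and not measured binding.

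Of 16 genes listed for fatty acid synthesis and desaturation, 15 were tested and 13 lay above Control. DESeq2 called 3 higher, where 1.20% of all genes were, and 0 lower. FASN, the fatty acid synthase, stood at 1082, 1046 and 878 CPM in SRSF2-OE against 282 and 384 CPM in Control (1.39 ± 0.24, DESeq2 adjusted p = 6.4e-05). FADS2, which desaturates polyunsaturated fatty acids, stood at 94.0, 114 and 67.4 CPM against 8.10 and 26.5 CPM (2.25 ± 0.50, DESeq2 adjusted p = 0.0023). FADS1, its partner, stood at 71.3, 67.4 and 65.6 CPM against 16.6 and 30.8 CPM (1.43 ± 0.29, DESeq2 adjusted p = 0.0031). The FASN call held without each library, and FADS1 and FADS2 lost theirs without the summed Control library (DESeq2 adjusted p = 0.123 and 0.095). SCARB1, the receptor that takes up cholesterol esters from high-density lipoprotein, had the smallest edgeR p of all genes: 178, 174 and 169 CPM against 54.6 and 75.5 CPM, a log2 fold change of 1.22 ± 0.16 (edgeR adjusted p = 0.127, DESeq2 adjusted p = 4.2e-08). SCARB1 was among the tightest groups, with an SD of 4.54 CPM around 174 CPM, and passed in edgeR without SRSF2-OE replicate 1 (adjusted p = 0.033).

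The lipid lists were near the other constructs. Against the mean of the other 4 overexpression groups, the median log2 fold change was -0.06 for the cholesterol list and -0.01 for the fatty acid list, and neither list held a DESeq2 call. In the 9 other libraries FDPS ranged from 181 to 543 CPM and FASN from 478 to 1082 CPM, above both Control libraries in each case. The comparisons of the 5 constructs with Control share the same 2 Control libraries.

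**Figure D2:**
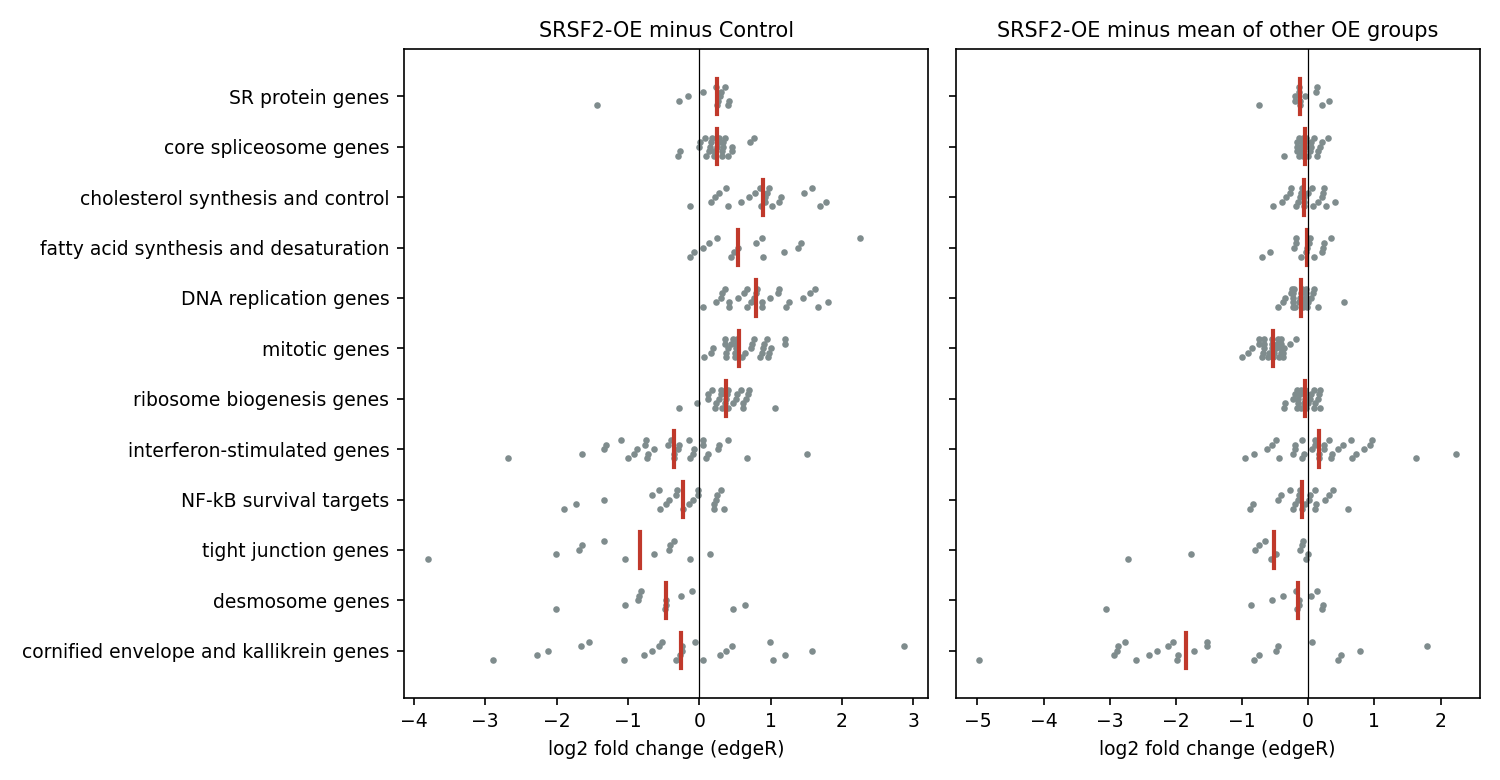
Log2 fold change (edgeR, x axis) of the tested members of 12 gene lists, SRSF2-OE minus Control on the left and SRSF2-OE minus the mean of the other 4 overexpression groups on the right; each grey point is a gene and each red bar the list's median. The cholesterol list has a median of 0.90 on the left and -0.06 on the right, while the tight junction list lies below 0 on both sides.

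Most tight junction genes lay below Control. Of 17 tight junction genes listed, 12 were tested and 11 had a negative log2 fold change. In 7, all 3 SRSF2-OE libraries lay below both Control libraries, where 17.5% of all genes did. DESeq2 called 2 lower, where 1.10% of all genes were. The list had a median of -0.83 against Control and -0.52 against the other overexpression groups. CLDN1, which encodes the strand protein claudin-1, stood at 11.03, 6.06 and 8.55 CPM in SRSF2-OE and at 77.1 and 168 CPM in Control. The groups were far apart. The log2 fold change was -3.81 ± 0.67 (edgeR adjusted p = 0.127, DESeq2 adjusted p = 1.7e-05), and the DESeq2 call was lost without Control replicate 3 (adjusted p = 0.114). The 9 other libraries held 13.99 to 144 CPM, all above SRSF2-OE, and the difference from the mean of those 4 groups was -2.72 ± 0.58 (edgeR adjusted p = 0.343, DESeq2 adjusted p = 7.6e-05). DESeq2 kept that call without each of the 2 Control libraries, the 3 SRSF2-OE libraries and TRA2B-OE replicate 3, the only libraries left out for it.

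MARVELD3, a tetraspan protein of tight junctions, stood at 3.44, 2.45 and 3.22 CPM against 6.65 and 10.1 CPM (-1.64 ± 0.29, DESeq2 adjusted p = 1.3e-04, and 0.079 without Control replicate 3). CXADR, a junctional adhesion molecule best known as a virus receptor, stood at 4.58, 5.87 and 8.03 CPM against 11.8 and 25.8 CPM (-2.04, DESeq2 adjusted p = 0.016). The CXADR call was lost without either Control library, and without SRSF2-OE replicate 1 (DESeq2 adjusted p = 0.051). The scaffold gene TJP1 had a log2 fold change of -0.35 without a call, and CLDN7 was the exception at 0.15. Among 12 desmosome genes tested, 10 lay below Control with a median of -0.47 and 0 calls. PKP3, a desmosomal plaque protein, lay above, at 209, 251 and 231 CPM against 132 and 149 CPM. The desmosomal cadherin gene DSC2 stood at 96.6, 90.7 and 156 CPM against 166 and 188 CPM (-1.05 ± 0.32, DESeq2 adjusted p = 0.075). Of 18 adherens junction and polarity genes tested, 14 lay below Control, with a median of -0.26 and 0 calls. All 3 SRSF2-OE libraries lay below both Control libraries in 7 of the 18, where 17.5% of all genes did. They lay above both in 4, where 16.7% of all genes did. CDH3, the placental cadherin, was among those 4, at 574, 667 and 546 CPM against 297 and 478 CPM. The adherens junction cadherin CDH1 overlapped, at 184, 190 and 185 CPM against 91.2 and 244 CPM.

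Of the 21 survival and inflammatory genes under NF-kB tested, DESeq2 called 2 lower, where 1.10% of all genes were. BIRC3, an inhibitor of apoptosis that ubiquitinates signalling proteins below the TNF receptor, stood at 137, 115 and 103 CPM in SRSF2-OE against 744 and 503 CPM in Control. Its log2 fold change was -1.90 ± 0.27 (edgeR adjusted p = 0.127, DESeq2 adjusted p = 1.1e-05), the DESeq2 call held without each of the 5 libraries, and edgeR passed it without SRSF2-OE replicate 1 (adjusted p = 0.041). Against the other overexpression groups it was -0.83 ± 0.21 (DESeq2 adjusted p = 0.036), with those libraries at 88.1 to 708 CPM, and that call was lost without either Control library (DESeq2 adjusted p = 0.071 and 0.068) or SRSF2-OE replicate 3 (0.406). SOD2, the mitochondrial manganese superoxide dismutase, stood at 433, 524 and 463 CPM against 3676 and 1958 CPM (-1.73 ± 0.36, DESeq2 adjusted p = 0.0029, and 0.377 without Control replicate 3). Its difference from the other overexpression groups was -0.05. The 21 tested genes of the NF-kB list had a median of -0.23, with 15 below Control and 0 called higher, and a median of 0.03 without Control replicate 3. NFKB1, NFKBIA and TNFAIP3, themselves NF-kB targets, had log2 fold changes of -0.02, -0.32 and -0.23 without a call.

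The promoter of BIRC3 is shown because a kappa-B site, the DNA element of NF-kB, can be read in it. The 250 bases before the start are from RefSeq, GRCh38.p14, with the match to GGG, any 2 bases and TTTCC (here its reverse complement; both strands were searched) in capitals.
BIRC3, chr11:102317234-102317483, plus strand: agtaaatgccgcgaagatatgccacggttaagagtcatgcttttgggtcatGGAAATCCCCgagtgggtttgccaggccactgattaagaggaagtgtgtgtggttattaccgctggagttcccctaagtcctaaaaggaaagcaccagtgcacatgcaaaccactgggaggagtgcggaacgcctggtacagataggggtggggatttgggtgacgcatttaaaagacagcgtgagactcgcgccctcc
This motif was found in 6 of 20 NF-kB list genes with an entry (30.0%) and in 1.73% of all 27305. The others with a match were NFKB1, NFKBIA, NFKBIZ, REL and TNFAIP3, none of them called between the groups.

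Further genes called lower came from several families. ATF3, a stress-induced transcription factor, stood at 1.09, 2.26 and 1.69 CPM against 79.3 and 6.71 CPM (log2 fold change -4.22, DESeq2 adjusted p = 4.3e-05), and the call was lost without the summed Control library (adjusted p = 0.069), which held over 10 times the level of the other. ERBB3, the kinase-impaired partner of the EGF receptor family, stood at 18.8, 11.7 and 14.9 CPM against 34.4 and 31.8 CPM (-1.30 ± 0.22, DESeq2 adjusted p = 1.9e-04), a call that held without each library and that edgeR made without SRSF2-OE replicate 1 (adjusted p = 0.032). NFIL3, a bZIP repressor of the circadian and immune systems, stood at 40.5, 32.8 and 38.7 CPM against 138 and 79.2 CPM (-1.21 ± 0.18). TMOD2, which caps actin filaments, stood at 20.2, 18.6 and 15.0 CPM against 41.4 and 41.3 CPM (-1.31). Against the mean of the other overexpression groups, ATF3 and NFIL3 were not called, at log2 fold changes of -0.58 and -0.02. ERBB3 and TMOD2 were called lower there, at -0.70 and -0.63 (DESeq2 adjusted p = 0.024 and 0.023). VNN1, a pantetheinase, stood at 9.31, 6.10 and 4.86 CPM against 42.2 and 29.6 CPM (-1.77), and was also called lower than in the other overexpression groups (-1.43, DESeq2 adjusted p = 0.0015). VNN1 lost the first call without Control replicate 3 (adjusted p = 0.393) and the second without SRSF2-OE replicate 3 (adjusted p = 0.118).

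RRAGD, a Rag GTPase that recruits mTORC1 to lysosomes, stood at 2.01, 0.75 and 0.61 CPM against 8.68 and 5.77 CPM (-2.52, DESeq2 adjusted p = 0.0015). The RRAGD call was lost without the summed Control library. P2RX7, an ATP-gated channel, stood at 2.35, 1.17 and 1.04 CPM against 4.02 and 8.52 CPM (-1.97, DESeq2 adjusted p = 0.013). The P2RX7 call was lost without Control replicate 3, and without SRSF2-OE replicate 2 or 3 (DESeq2 adjusted p = 0.0501 and 0.063). GFPT2 of the hexosamine pathway, HECW2, a ubiquitin ligase, N4BP2L1, GRAMD1C, a carrier of membrane cholesterol, and the pregnancy glycoprotein gene PSG4 completed the 12 lowest, at log2 fold changes of -1.97, -2.12, -1.96, -1.96 and -4.06. PSG4 has near-identical family members that can share its reads, and its level in Control was 30.4 and 6.32 CPM. Of these 5 genes GRAMD1C kept its call without each of the 5 libraries. Against the mean of the other overexpression groups GRAMD1C was called lower (-0.88, DESeq2 adjusted p = 0.047). RRAGD, P2RX7, GFPT2, HECW2, N4BP2L1 and PSG4 were not called there, at log2 fold changes of -0.59, -0.92, -0.41, -0.11, -0.24 and -0.06.

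The genes furthest above Control were mostly of low or uneven level. KANK4, a regulator of the cortical cytoskeleton, stood at 3.74, 15.4 and 5.53 CPM against 0.069 and 0.29 CPM (log2 fold change 4.56 ± 1.49, DESeq2 adjusted p = 0.028). The hair keratin gene KRT81 stood at 333, 1006 and 341 CPM against 47.5 and 96.1 CPM, so its mean rests heavily on SRSF2-OE replicate 2. KRT81 shares sequence with KRT86 (1.71, 8.32 and 3.04 CPM against 0.62 and 0.96 CPM), which makes the split between them uncertain. BAIAP2L2, an actin-membrane linker, stood at 2.87, 17.0 and 8.70 CPM against 1.44 and 1.45 CPM. PHEX, an endopeptidase of phosphate balance, stood at 9.14, 16.5 and 11.7 CPM against 1.45 and 2.08 CPM. SH3BGRL3, a small thioredoxin-like protein, stood at 370, 473 and 297 CPM against 54.9 and 98.3 CPM (1.98, DESeq2 adjusted p = 6.4e-05), and MXRA8, a cell surface adhesion protein, at 22.6, 13.8 and 25.1 CPM against 2.48 and 5.49 CPM (2.28, DESeq2 adjusted p = 1.1e-05). The calls of SH3BGRL3 and MXRA8 held without each of the 5 libraries, and those of KANK4, KRT81, BAIAP2L2 and PHEX were lost without either Control library. Against the mean of the other overexpression groups MXRA8 was called higher (1.06, DESeq2 adjusted p = 0.028). KANK4, KRT81, BAIAP2L2, PHEX and SH3BGRL3 were not called there, at log2 fold changes of 1.96, -0.15, 1.05, 1.085 and 0.67.

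DESeq2 called both mesothelin genes higher in SRSF2-OE in each comparison. MSLN, which encodes the surface glycoprotein mesothelin, stood at 144, 357 and 408 CPM against 103 and 71.8 CPM in Control (2.25, DESeq2 adjusted p = 0.013) and was 2.29 ± 0.42 above the other overexpression groups (DESeq2 adjusted p = 2.5e-04). Its paralog MSLNL stood at 8.94, 14.2 and 25.6 CPM against 6.87 and 2.20 CPM (2.40, DESeq2 adjusted p = 0.0031), and 2.501 ± 0.39 above the other groups (DESeq2 adjusted p = 1.2e-05). The 9 other libraries held 13.1 to 181 CPM of MSLN, so SRSF2-OE replicate 1 lay inside their range, and 1.73 to 7.52 CPM of MSLNL, below all 3 SRSF2-OE libraries. Without Control replicate 3 the calls against Control were lost for both (DESeq2 adjusted p = 0.096 for MSLN and 0.285 for MSLNL), and for MSLN also without the summed Control library (0.190). The genes are paralogs and can share reads. HCN2, a pacemaker channel gene, stood at 4.04, 13.3 and 11.8 CPM against 2.32 and 2.73 CPM (2.05), and edgeR called it without SRSF2-OE replicate 1 (adjusted p = 0.015).

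Of 24 glycolysis and hypoxia genes tested, 17 lay above Control with a median of 0.43, and of 0.06 without SRSF2-OE replicate 2. The mean log2 level of the list was 6.70, 7.60 and 6.64 in SRSF2-OE replicates 1, 2 and 3 and 6.12 and 6.85 in Control. In 10, all 3 SRSF2-OE libraries lay above both Control libraries, where 16.7% of all genes did. DESeq2 called 2 higher, PGAM1 and GPI, where 1.20% of all genes were. Among the 5 libraries left out in turn, only leaving out SRSF2-OE replicate 3 kept the GPI call. PGAM1 lost its call without the summed Control library. PGAM1, the phosphoglycerate mutase of glycolysis, stood at 69.5, 88.3 and 69.4 CPM against 28.7 and 40.3 CPM (0.94, DESeq2 adjusted p = 7.0e-04). Several genes named for the smallest edgeR p, among them G6PC3, PGP, UBXN11 and DOCK2, belong to no list used here. G6PC3, a glucose-6-phosphatase, stood at 88.4, 80.2 and 75.6 CPM against 20.8 and 33.6 CPM (1.46). PGP, a phosphoglycolate phosphatase, stood at 22.3, 18.8 and 17.97 CPM against 6.37 and 8.06 CPM (1.33). UBXN11 stood at 76.6, 83.8 and 75.5 CPM against 24.0 and 30.1 CPM (1.31). In PGAM1, G6PC3, PGP and UBXN11 the groups were apart. Against the mean of the other overexpression groups none of these 4 was called, at log2 fold changes of 0.305, 0.54, 0.32 and 0.55. DOCK2, an activator of the GTPase RAC, was at 0.56, 0.96 and 0.65 CPM in SRSF2-OE and at 0.0076 and 0 CPM in Control, and at 0.14 to 1.04 CPM in the 9 other libraries, with a difference of 0.91 ± 0.40 from the other overexpression groups (DESeq2 adjusted p = 0.389). From the matrix protease list, TIMP1, an inhibitor, stood at 390, 344 and 209 CPM against 63.9 and 119 CPM (1.75, DESeq2 adjusted p = 0.0014, and 0.069 without the summed Control library).

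In the lists of RNA processing genes the counts of calls were too small to set apart from the 2.30% that DESeq2 called over all genes. Of 13 SR protein genes listed beside SRSF2, 12 were tested, 9 lay above Control with a median of 0.25, and 1 was called: SRSF12, a weakly expressed repressor of splicing, at 0.56, 0.55 and 0.54 CPM against 1.98 and 1.88 CPM (log2 fold change -1.44, DESeq2 adjusted p = 0.028, and 0.568 without Control replicate 3). SRSF1 stood at 231, 162 and 177 CPM against 147 and 146 CPM (0.41) and TRA2B at 140, 132 and 129 CPM against 106 and 105 CPM (0.41), neither called. The 25 core spliceosome genes tested had a median of 0.26 with 22 above Control, and the 21 hnRNP genes a median of 0.06. DESeq2 called 0 genes of those lists, of the 16 nonsense-mediated decay factors (median -0.01), of the 12 nuclear speckle genes (0.13) and of the 13 genes of P-TEFb and 7SK (0.02). The hnRNP, decay, speckle and P-TEFb medians lay on both sides of 0 over the alternatives. Ribosome biogenesis genes lay above Control in 24 of 26, where 53.0% of all genes did, with a median of 0.38. DESeq2 called 1 of the 26 higher, where 1.20% of all genes were. That gene was NOP56, a core protein of box C/D particles, at 238, 293 and 275 CPM against 132 and 137 CPM (1.06 ± 0.17, DESeq2 adjusted p = 6.1e-05).

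Proliferation genes were above Control in sign but not called. All 27 DNA replication genes and all 30 mitotic genes tested had positive log2 fold changes, with medians of 0.80 and 0.56 and 0 DESeq2 calls. All 3 SRSF2-OE libraries lay above both Control libraries in 6 of the 27 replication genes and 0 of the 30 mitotic genes, where 16.7% of all genes did. RRM2, a subunit of ribonucleotide reductase, stood at 71.8, 18.4 and 83.2 CPM in SRSF2-OE against 6.98 and 25.3 CPM. SRSF2-OE replicate 2 was the low library there, as for MCM2, a subunit of the replicative helicase (55.9, 27.6 and 53.6 CPM against 16.6 and 37.9 CPM). MYBL2, a transcription factor of the cell cycle and one of the 12 highest calls, stood at 43.7, 10.7 and 41.4 CPM against 2.99 and 9.85 CPM (DESeq2 adjusted p = 0.046). The MYBL2 call was lost without SRSF2-OE replicate 1 (DESeq2 adjusted p = 0.147) or replicate 3 (0.140). Its log2 fold change against the mean of the other overexpression groups was 0.02. The DESeq2 count of replication genes was 6 without Control replicate 3, and their median ran from 0.48 to 1.46 over the alternatives. The mitotic median ran from 0.02 without SRSF2-OE replicate 1, the library whose SRSF2 lay within the other constructs, to 1.21 without Control replicate 3. Against the other overexpression groups the mitotic median was -0.54.

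Interferon-stimulated genes lay below Control in 23 of 32 tested, with a median of -0.35 and 1 call, IFIT5, at 19.6, 17.97 and 16.6 CPM against 39.6 and 26.3 CPM (-0.64, DESeq2 adjusted p = 0.028). The IFIT5 call was kept without SRSF2-OE replicate 1 (adjusted p = 0.035) and lost without each of the other 4 libraries (0.093 to 0.346). Without SRSF2-OE replicate 1 DESeq2 called 4 genes of the list lower. Against the other overexpression groups 20 of the 32 genes lay above, where 55.1% of all genes did. The list's median there was 0.16, against 0.04 over all genes. DESeq2 called 3 of the 32 in either direction, where 0.945% of all genes were.

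Compared with the mean of the other 4 overexpression groups, edgeR called 0 of 21326 genes (0%; 2619, or 12.3%, at an unadjusted p under 0.05), and DESeq2 called 200 of 21160 (0.945%), 99 higher (0.468%) and 101 lower (0.477%). All 3 SRSF2-OE libraries lay above all 9 others in 221 genes (1.04%) and below all 9 in 288 (1.35%), and 55.1% of log2 fold changes were above 0. Leaving out SRSF2-OE replicate 3 took the DESeq2 count to 15. It was 993 with replicate 2 left out, 371 with replicate 1 left out and 1534 with the library labelled TRA2B-OE replicate 3 left out. Beside CLDN1, VNN1 and the mesothelin genes, EPCAM, an epithelial adhesion protein, stood at 1.25, 1.07 and 0.54 CPM, below the other constructs (log2 fold change -2.84 ± 0.62, DESeq2 adjusted p = 1.2e-04). ABI3BP, a matrix protein, stood at 4.44, 10.1 and 11.04 CPM and 2.70 above them (DESeq2 adjusted p = 1.2e-04), while Control held 13.4 and 7.36 CPM. The mitochondrial pseudogenes MTCO1P40 and MTCO2P12 were 1.56 and 1.23 above (DESeq2 adjusted p = 1.9e-05 for each), and reads of the mitochondrial genome can map to such copies. ZEB2, a repressor of epithelial genes, was 1.33 above (DESeq2 adjusted p = 0.042) at 37.4, 33.6 and 43.7 CPM, and lost the call without SRSF2-OE replicate 1 (adjusted p = 0.094) or replicate 3 (0.406). Control held 61.4 and 18.3 CPM of ZEB2, on both sides of SRSF2-OE, and the log2 fold change against Control was 0.23 without a call. Genes of the cornified envelope and kallikreins had a median of -1.85 in this comparison and of -0.25 against Control (0.53 without Control replicate 3), with 0 calls.

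The 3 SRSF2-OE libraries differed among themselves. Of 12834 genes with a mean of at least 3 CPM, 375 differed over 4-fold between replicates 1 and 2, 317 between replicates 2 and 3, and 45 between replicates 1 and 3, against 122 between the 2 Control libraries. A second division parted replicate 1 from the others. Both SRSF2-OE replicates 2 and 3 held less than 0.1 of the level of replicate 1 and of both Control libraries in 12 genes that reached at least 3 CPM in each of those 3 libraries, and the reverse, with at least 3 CPM in replicates 2 and 3, held for 1 gene, SPINK6 (0.40, 4.801 and 5.76 CPM against 0.069 and 0.33 CPM). These genes were picked by their values and are given as a description.

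FUCA2, a secreted fucosidase, stood at 65.3, 2.31 and 2.09 CPM against 51.2 and 66.2 CPM in Control. BST2 (tetherin), an interferon-induced membrane protein, stood at 38.7, 0.68 and 1.19 CPM against 28.2 and 43.4 CPM. ZNF302, a zinc finger gene, stood at 7.78, 0.021 and 0.067 CPM against 15.2 and 7.73 CPM. The same 12 genes lay below both Control libraries in both SRSF4-OE libraries (12 of 12 genes, 6 of them at less than 0.1 of both Control libraries), in both SRSF6-OE libraries for 11 genes, in all 3 SRSF9-OE libraries for 5 and in both TRA2B-OE libraries for 3. The share of all genes that lay so in these groups was not counted. The 12 genes were also picked as high in both Control libraries, so the counts are a description alone. FUCA2 stood at 13.2 and 10.6 CPM in SRSF4-OE and at 50.9 to 64.2 CPM in SRSF9-OE.

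**Figure D3:**
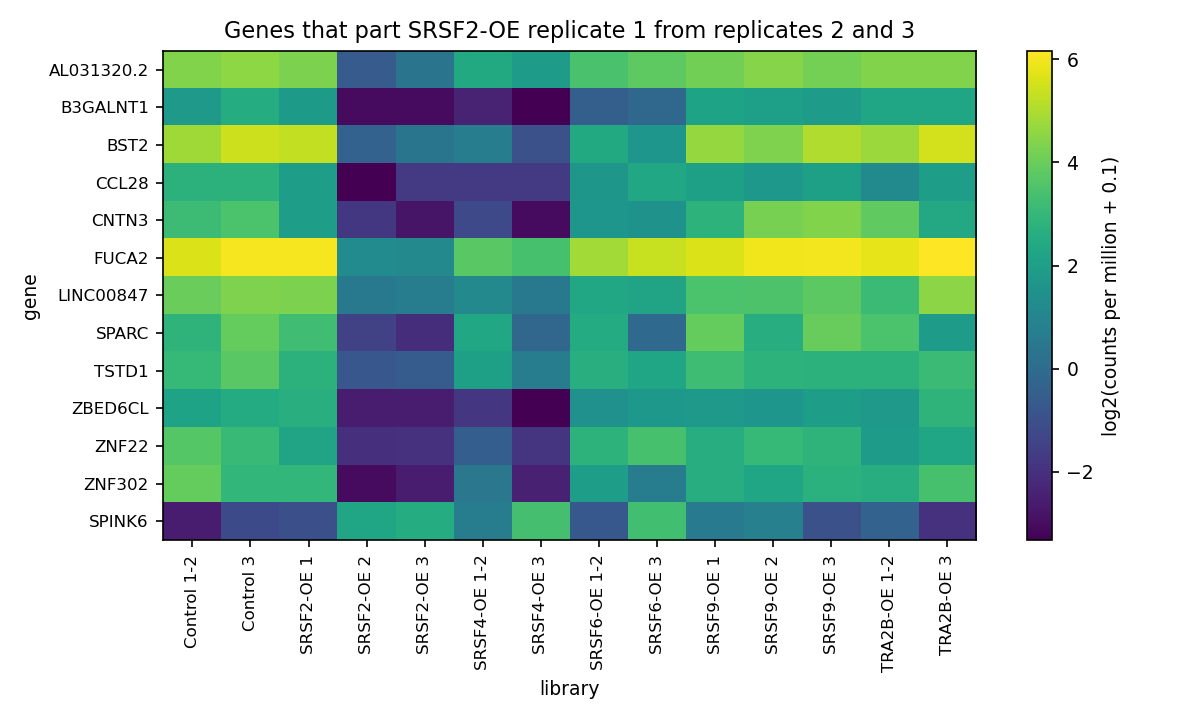
Level of 13 genes in the 14 libraries, as log2 of CPM + 0.1 (colour; yellow is high). In the upper 12 rows SRSF2-OE replicates 2 and 3 are dark and SRSF2-OE replicate 1 is not, with both SRSF4-OE libraries low as well; SPINK6, in the last row, runs the other way.

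With SRSF2-OE replicate 1 left out, edgeR called 69 of 21261 genes (0.325%), 12 higher and 57 lower, of which 25 were also among the 451 of DESeq2 with all libraries. By smallest p they began with FUCA2, AL031320.2, TDRD5, CEP164P1, APOBEC3F, ZNF22, DLL3 and AL390729.1, all lower, and all higher in the library left out than in replicates 2 and 3. In that library ZNF22 (4.54 CPM) and CEP164P1 (2.33 CPM) were also below both Control libraries (12.6 and 8.36 CPM, and 6.37 and 3.96 CPM). TDRD5, a germline factor, stood at 3.12 CPM in replicate 1 and 0.021 and 0.090 CPM in the others, and APOBEC3F, a cytidine deaminase, at 1.73 CPM and 0.043 and 0.090 CPM. ESRP1, an epithelial splicing regulator named here after its values were seen, stood at 100 CPM in replicate 1, at 12.1 and 19.3 CPM in replicates 2 and 3 and at 68.9 and 131 CPM in Control (-3.06 without replicate 1, edgeR adjusted p = 0.024). The labels alone do not say which of the 3 libraries carried how much of the introduced gene.

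Gene levels also shifted by chromosome. Levels were set against each gene's median over the 14 libraries, and the median over the 356 genes of chromosome 20 (mean of at least 3 CPM) was -0.15, 0.41 and 0.21 log2 units in SRSF2-OE replicates 1, 2 and 3 and -0.22 and -0.25 in Control. Other constructs shared the shift: the chromosome 20 median was 0.20 and 0.24 in the SRSF4-OE libraries, level with SRSF2-OE replicate 3, and 0.08 and 0.12 in SRSF6-OE, while the SRSF9-OE libraries lay between -0.07 and -0.05 and the TRA2B-OE libraries at -0.05 and -0.30. On the other 22 chromosomes the SRSF2-OE medians ran from -0.16 to 0.26. The median log2 fold change against Control was 0.44 on chromosome 20 and ran from -0.13 to 0.28 on the others, chromosome 19 being next. Split by position into 4 stretches of 89 genes, chromosome 20 gave medians of 0.29, 0.47, 0.40 and 0.44 in SRSF2-OE replicate 2 and of -0.21, -0.13, -0.05 and -0.24 in replicate 1. All 4 stretches were thus high in one library and low in the other. Of the 188 genes called higher at this level, 27 (14.4%) lay on chromosome 20, which held 2.80% of the genes, and of the 171 called lower 1 did.

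**Figure D4:**
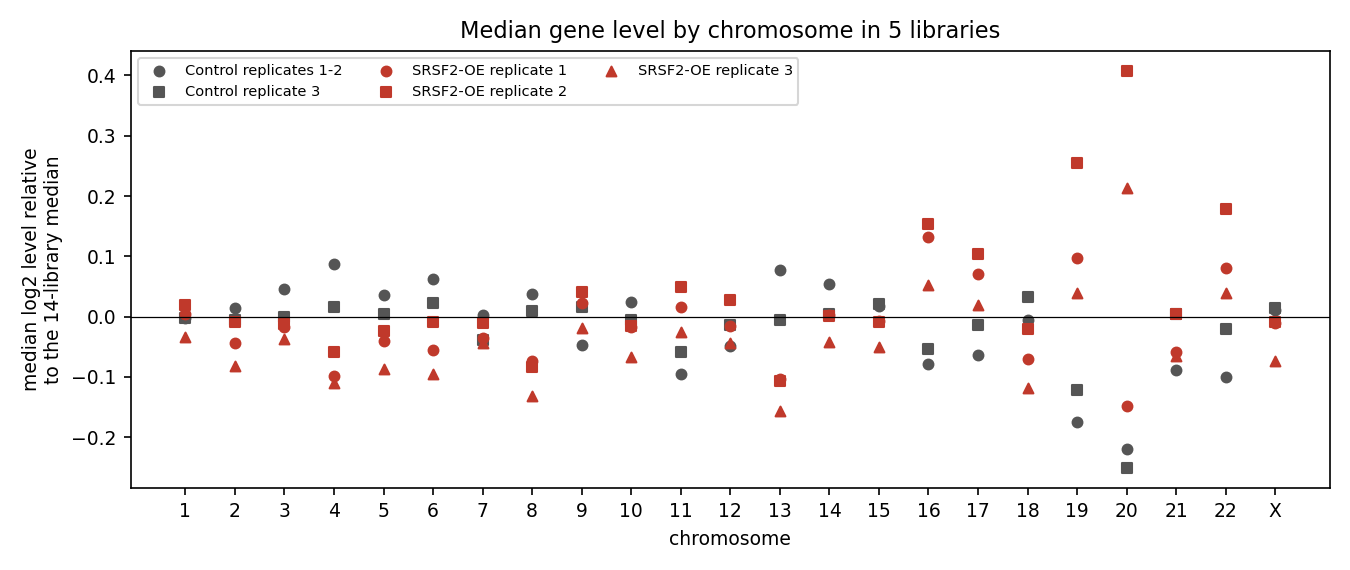
Median level of the genes on each chromosome in the 5 libraries compared (y axis, log2 units relative to each gene's median over 14 libraries; x axis, chromosome), with grey symbols for Control and red for SRSF2-OE. On chromosome 20 SRSF2-OE replicates 2 and 3 lie at 0.41 and 0.21 while SRSF2-OE replicate 1 and both Control libraries lie at -0.15 or below.

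The genes whose level followed SRSF2 most closely over the 14 libraries were taken by Pearson's r of log2 CPM among genes with a mean of at least 10 CPM. They were MTG2 (0.93), MFSD11 (0.91), GMEB2 (0.87), OGFR (0.86), ITPA (0.86) and SPATA2 (0.85), correlations that describe these libraries and carry no test, and that include the 3 libraries in which SRSF2 was introduced. Of the 6, 5 lie on chromosome 20 and MFSD11 lies beside SRSF2 on chromosome 17. MTG2, a mitochondrial GTPase, stood at 34.7, 53.9 and 47.8 CPM in SRSF2-OE and 28.1 and 23.7 CPM in Control. Among the genes described above, NOP56 and MYBL2 also lie on chromosome 20, as does ID1, an inhibitor of differentiation factors called higher by DESeq2 (184, 466 and 244 CPM against 67.6 and 78.1 CPM, adjusted p = 0.036). The ID1 call was lost without SRSF2-OE replicate 2 (DESeq2 adjusted p = 0.149) or replicate 3 (0.053). The part of the chromosome shift in the levels of these genes was not tested.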

How the data were processed

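RNA from 18 MCF-10A samples was made into stranded mRNA libraries and sequenced in pairs, as the labels' protocols state. The authors deposited raw counts per gene as whole numbers, without normalisation. The submitters' processing notes list GRCh37 as the build, with featureCounts of Subread, STAR 2.5.1b and Trimmomatic 0.36; their settings, strand included, are not given in the sources used here. Names for 55951 of 60252 IDs, chromosomes and exon overlaps came from GENCODE release 29, on another build.

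Lanes of a shared library ID were summed, which left 14 libraries of 42959069 to 121601376 counts. In R 4.3.3, edgeR 4.0.16 (TMM, filterByExpr with a minimum count of 10, quasi-likelihood test) fitted group and label set over all 14 libraries, with 7 residual degrees of freedom and a biological coefficient of variation of 0.318. Label set parts libraries with a library ID from those with numeric labels, as all SRSF2-OE libraries have. Adjustment was by Benjamini-Hochberg at 0.05. DESeq2 1.42.0 (genes with a count, independent filtering at its default alpha of 0.1, calls at 0.05) and limma 3.58.1 (voom) used the same terms. The edgeR code was tested on simulated data.

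The members, gene lists and tests were chosen with earlier results of these data known. Named genes were SRSF2, the 12 highest and 12 lowest DESeq2 calls with a mean of at least 3 CPM and groups apart, the 8 smallest edgeR p, 8 calls without SRSF2-OE replicate 1, 6 highest and 6 lowest against the other constructs, up to 4 calls per list, and 6 genes most like SRSF2; a selection is described, and some items are not reported here.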

Additional observations from a re-analysis of the deposited data

How the results depend on the processing

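The count of genes called against Control was 0 in edgeR with RLE size factors, limma-voom, no label set term, the 5 libraries alone, the numeric label set alone and the replicate block. It was 2 without the filter on low counts, 451 in DESeq2, 1345 with the 18 samples as separate replicates (41 against the other constructs, 1 without the filter, 200 in DESeq2), 0 to 69 over libraries left out and 46 without both SRSF2-OE replicate 1 and TRA2B-OE replicate 3 (0 to 35, and 3, against the other constructs). With DESeq2, libraries left out after the calls were seen gave 74 to 619 genes against Control and 15 to 1534 against the other constructs. The SRSF2 log2 fold change ran from 0.58 without SRSF2-OE replicate 2 to 1.01 without replicate 1, and among the edgeR fits it passed with 18 samples alone (0.81, adjusted p = 0.022). It was 0.84 with the replicate block. DESeq2 passed it without SRSF2-OE replicate 1 (adjusted p = 6.1e-04) and without that library and TRA2B-OE replicate 3 (0.0036). Both settings leave out the SRSF2-OE library with the least SRSF2, so these passes follow in part from that selection. Replicate numbers 1 and 3 alone were shared, with correlations of deviations of 0.098 and -0.327, so the numbers were not taken to pair the libraries. The medians of the cholesterol (0.68 to 1.17), fatty acid (0.50 to 0.75) and tight junction (-1.05 to -0.62) lists kept their sign. Control has 2 libraries, and its summed library is the only one of these 5 with a library ID, so label set and that library are tied; where 1 Control library was left out, the lone one was assumed to vary like the other groups.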

Other observations

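SRSF2-OE replicate 2 stood apart in genes of hypoxia and of the plasminogen system, which were picked after their values were seen and carry no test. CA9, a carbonic anhydrase induced by low oxygen, stood at 2.39, 51.2 and 2.95 CPM in SRSF2-OE replicates 1, 2 and 3 and at 0.11 and 3.38 CPM in Control. VEGFA, the endothelial growth factor, stood at 88.4, 297 and 92.8 CPM against 82.2 and 115 CPM. PLAU, the urokinase, stood at 20.4, 229 and 19.95 CPM against 32.1 and 91.3 CPM, and its receptor PLAUR at 4.04, 33.5 and 4.54 CPM against 5.69 and 6.28 CPM. Across the 9 libraries with other constructs PLAU ran from 9.55 to 485 CPM and VEGFA from 70.6 to 691 CPM, so levels as high as those of replicate 2 occurred in other groups. Replicate 2 was also the library with the lowest mitochondrial share of the 3, at 8.31%.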
